A study of Mus musculus with 6 samples.

Results

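The genes of bone morphogenetic protein (BMP) signalling described here were 10 genes: the ligands Bmp2, Bmp4 and Bmp7, the receptor Bmpr1a, the secreted antagonist Grem1, the inhibitory SMAD Smad6, and the 4 Id genes Id1, Id2, Id3 and Id4. They were taken by gene name as a pathway, with earlier results of these data known, and the rule itself used no signal. Every non-control probe whose accession belongs to one of them was taken. This gave 11 of the 27235 probes that could be matched to a gene, with 2 probes for Bmp4 and 1 for each of the other 9 genes, out of 20660 genes in all. RNA of freshly sorted mammary epithelial cells was compared between 3 E18.5 fetal and 3 adult basal samples, each labelled as a biological replicate and hybridized to its own one-color array. Both populations came from female C57Bl6J mice, and the labels name no transgene or treatment. The adult mice were of 8-12 weeks. Both sorts removed CD31+, CD45+ and Ter119+ cells and kept CD49f+ cells. Fetal cells were gated as EpCAM++ and adult basal cells as EpCAM+ and BP-1-, so that the gates themselves differed in the level of EpCAM and in the use of BP-1. The comparison addressed how the RNA of fetal cells enriched for the ability to regenerate mammary tissue differs from that of the adult cells most like them. Fetal tissue was dissociated for a short time and adult tissue overnight, and dissociation and developmental stage cannot be told apart in this design.

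BMPs are secreted ligands that bring together type I receptors, such as Bmpr1a, and type II receptors, which then phosphorylate the receptor SMADs. With Smad4 these enter the nucleus and activate genes that include the Id genes and Smad6, the last of which feeds back to inhibit the pathway. Id proteins lack a DNA-binding domain and hold E proteins in dimers that cannot bind DNA. BMP signalling is known for its part in the formation of the mammary bud and nipple, Id2 for its need in alveolar development, and Id4 as a gene of the basal layer.

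The 250 bases before the RefSeq transcription start of Id2, Id3 and Id4 (GRCm38.p6) are shown because the results turn on the opposite directions of members of this family. The table of RefSeq promoters matched 7 of the 10 members and 3 of the 4 Id genes. Each sequence is read 5′ to 3′ on the strand of its gene. Capitals mark GGCGCC, a GC-rich element known from BMP-responsive promoters, CAGAC, which holds the core SMAD-binding letters, and the CCAAT box, each in either orientation, so that CAGAC also appears as GTCTG and CCAAT as ATTGG. The 3 motifs share no bases in these windows.
Id2 promoter, chr12:25096093-25096342, minus strand: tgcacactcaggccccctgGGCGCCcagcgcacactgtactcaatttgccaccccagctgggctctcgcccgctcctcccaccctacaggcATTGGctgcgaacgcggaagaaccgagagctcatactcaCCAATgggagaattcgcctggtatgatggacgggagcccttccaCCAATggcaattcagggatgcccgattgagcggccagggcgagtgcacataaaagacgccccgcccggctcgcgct
Id3 promoter, chr4:136143572-136143821, plus strand: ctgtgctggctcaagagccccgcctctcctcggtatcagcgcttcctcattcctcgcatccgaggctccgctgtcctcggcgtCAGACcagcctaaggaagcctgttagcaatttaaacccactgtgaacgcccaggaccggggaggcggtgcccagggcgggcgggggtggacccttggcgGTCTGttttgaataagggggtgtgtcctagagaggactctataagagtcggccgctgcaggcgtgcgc
Id4 promoter, chr13:48260866-48261115, plus strand: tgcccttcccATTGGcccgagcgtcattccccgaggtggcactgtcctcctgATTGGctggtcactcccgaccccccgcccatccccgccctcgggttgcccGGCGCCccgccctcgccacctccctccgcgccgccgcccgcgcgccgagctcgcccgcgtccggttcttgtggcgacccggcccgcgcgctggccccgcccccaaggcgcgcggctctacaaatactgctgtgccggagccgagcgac
GGCGCC was found 231 bases before the start of Id2 and 148 before that of Id4. Id3 had CAGAC at 167 and 68 bases before its start. CCAAT was found 3 times before Id2 and 2 times before Id4. Among all 32851 promoter windows of the same length, 9.59% held GGCGCC, 42.2% held CAGAC and 33.8% held CCAAT. Id2 and Id4, which differed in opposite directions between the populations, both held GGCGCC and CCAAT. These matches describe letters and not binding.

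The share of probes well above background ran from 76.4% to 83.3% over the arrays, no spot was saturated, and 20448 probes passed a filter that removed probes below 5.95 (log2) in both populations. All values below are quantile-normalized log2 signals of a probe, and all differences are fetal minus adult basal on this log2 scale, fitted with limma over all tested probes. Each difference compares a probe with itself. Of the 11 member probes, 10 had a signal well above background on each of the 6 arrays and 9, from 9 genes, were tested. All 9 exceeded the filter in both populations, so that none was tested only because it was high in 1 of them.

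By the rule of the study, a Holm-adjusted p of at most 0.05 with a change of at least 2-fold, 0 of the 9 member probes were called (limma), where 11.1% of all tested probes were (5.92% as higher in fetal and 5.18% as higher in adult basal cells). All 9 had an unadjusted p under 0.05 (limma), as did at least 64.67% of all tested probes. With Benjamini-Hochberg adjustment in place of Holm, 4 of the 9 passed at 2-fold, against 30.0% of all tested probes: Id1 and Id2 were higher in fetal cells (16% of all probes passed in that direction), and Id4 and Smad6 were higher in adult basal cells (14%). Without the 2-fold limit all 9 passed the Benjamini-Hochberg adjustment, against 61.1% of all tested probes, with 6 higher in fetal and 3 in adult basal cells (30.8% and 30.4% of all probes). The 2 populations did not overlap for any of the 9, as for 69.0% of all tested probes (34.1% with fetal and 35.0% with adult basal cells higher). The median absolute difference of the 9 was 0.81, beside 0.55 over all tested probes.

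**Figure D1:**
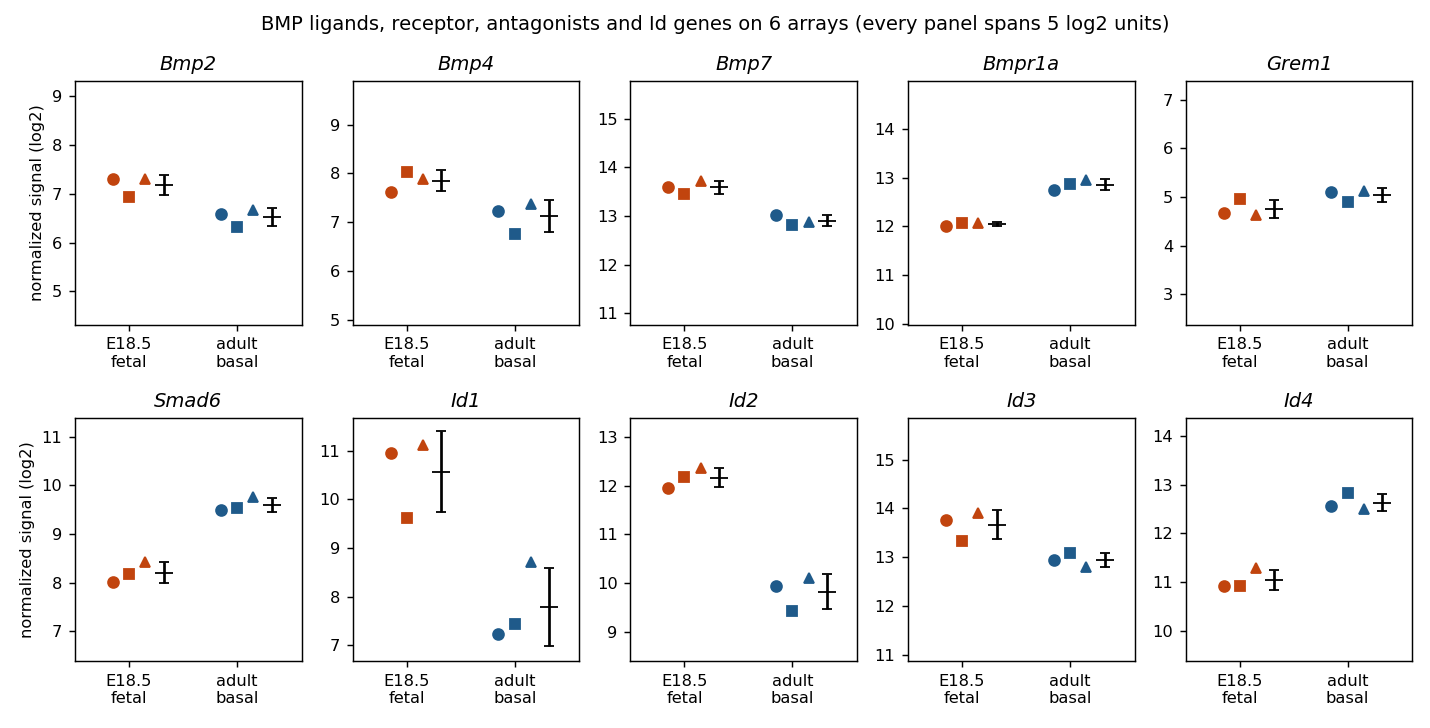
Quantile-normalized log2 signal (y axis) of the main probe of each of the 10 genes, with a symbol for each array (circle, square and triangle for replicates 1, 2 and 3) and beside it the mean and SD of 3 arrays for E18.5 fetal and adult basal cells, every panel spanning 5 log2 units. Id1 and Id2 sit higher on all fetal arrays, Id4 and Smad6 higher on all adult basal arrays, and the groups overlap only for Grem1.

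Of the ligands, Bmp7, which is made by epithelia in many developing organs, gave 13.59, 13.46 and 13.72 on fetal arrays 1 to 3 and 13.02, 12.82 and 12.87 on adult basal arrays 1 to 3. Every fetal array lay above every adult basal array, and the difference of 0.69 (SE 0.11, 1.61-fold) had a Benjamini-Hochberg adjusted p of 0.0014 (limma). Bmp2, a ligand of bone and heart formation, gave 7.30, 6.94 and 7.30 in fetal and 6.59, 6.32 and 6.67 in adult basal cells. Its difference of 0.65 (SE 0.15, 1.57-fold, 95% interval 0.30 to 1.00) had an adjusted p of 0.0066 by the same adjustment in limma. Bmp4, which acts in early mesoderm and in epithelial buds, gave 7.62, 8.04 and 7.89 in fetal and 7.23, 6.75 and 7.38 in adult basal cells on its brighter probe, a difference of 0.73 (SE 0.19, 1.66-fold, limma Benjamini-Hochberg p 0.012). This was the least even of the ligand differences: on the slide that held fetal array 1 and adult basal arrays 1 and 3 it was 0.32, and on the slide that held fetal arrays 2 and 3 and adult basal array 2 it was 1.21. On no array was the other Bmp4 probe well above background, and it was not tested. The 3 ligands were thus higher in fetal cells by amounts under 2-fold, sizes that 40.8% to 44.6% of all tested probes exceeded in either direction.

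Bmpr1a, the type I receptor that binds Bmp2 and Bmp4, gave 12.00, 12.06 and 12.07 in fetal and 12.75, 12.87 and 12.96 in adult basal cells. The fetal arrays lay close together below all adult basal arrays, and the difference of -0.81 (SE 0.10, 1.75-fold higher in adult basal cells) had a Benjamini-Hochberg adjusted p of 3.2e-04 (limma). The receptor therefore ran in the opposite direction to the 3 ligands, also below 2-fold.

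Grem1, a secreted antagonist that binds Bmp2 and Bmp4 and keeps them from their receptors, was dim, with 4.68, 4.96 and 4.63 in fetal and 5.11, 4.89 and 5.13 in adult basal cells. Its populations overlapped, since fetal array 2 lay above adult basal array 2. It was below the filter in both populations and was not tested. In a fit without the filter its difference was -0.29 (SE 0.13, limma Benjamini-Hochberg p 0.134).

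Smad6, the inhibitory SMAD that blocks receptor SMADs and is itself a BMP target, gave 8.01, 8.19 and 8.43 in fetal and 9.50, 9.52 and 9.76 in adult basal cells. The lowest adult basal array was above the highest fetal array by more than the range within either population. The signal was 2.61-fold higher in adult basal cells (95% interval 2.07 to 3.29, log2 difference -1.38, SE 0.14), with a Benjamini-Hochberg adjusted p of 1.1e-04 and a Holm-adjusted p of 0.35 (limma).

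The Id genes did not move one way. Id2 gave 11.96, 12.18 and 12.36 in fetal and 9.94, 9.43 and 10.12 in adult basal cells. The populations were 1.84 apart at their nearest arrays, and the signal was 5.05-fold higher in fetal cells (95% interval 3.67 to 6.96, log2 difference 2.34, SE 0.20, limma Benjamini-Hochberg p 4.2e-05, Holm p 0.099). Id1, the classical immediate target of BMP signalling, gave 10.96, 9.61 and 11.12 in fetal and 7.23, 7.45 and 8.71 in adult basal cells. Its arrays spread more than those of any other member, with an SD of 0.83 in fetal and 0.80 in adult basal cells beside medians of 0.12 and 0.18 over all tested probes. Fetal array 2 and adult basal array 3 came within 0.90 of each other. The 6.81-fold higher signal in fetal cells therefore had a wide 95% interval, from 2.99 to 15.5 (log2 difference 2.77, SE 0.51, limma Benjamini-Hochberg p 0.0022, Holm p 1).

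Id3 gave 13.75, 13.33 and 13.91 in fetal and 12.94, 13.09 and 12.81 in adult basal cells. It was higher on all fetal arrays, by 1.65-fold (log2 difference 0.72, SE 0.17, 95% interval 0.33 to 1.12, limma Benjamini-Hochberg p 0.0073). Id4 gave 10.92, 10.93 and 11.29 in fetal and 12.56, 12.83 and 12.51 in adult basal cells. Here all adult basal arrays were higher, by 1.22 or more, and the signal was 3.00-fold higher in adult basal cells (95% interval 2.36 to 3.82, log2 difference -1.59, SE 0.15, limma Benjamini-Hochberg p 7.0e-05, Holm p 0.195). Among all tested probes 7.15% had a larger absolute difference than Id1, 9.58% than Id2, 17.2% than Id4 and 41.2% than Id3.

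**Figure D2:**
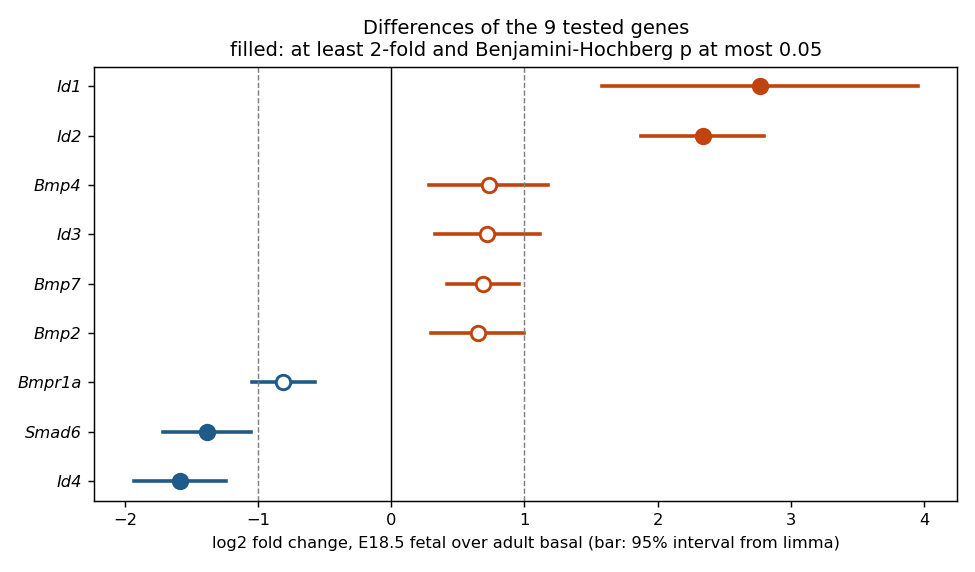
Log2 difference, fetal minus adult basal (x axis), of the 9 tested member probes, with bars for the 95% interval of the limma fit and dashed lines at 2-fold. Filled points passed Benjamini-Hochberg adjustment at 2-fold: Id1 and Id2 lie to the right of the dashed lines and Id4 and Smad6 to the left, with the estimates of the ligands, Id3 and Bmpr1a between them.

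Each slide held arrays of both populations. All 9 differences kept their direction on each slide, which had to follow, since the populations did not overlap for any of the 9. The directions on the slides are thus no separate support. On the 2 slides Id1 was 2.99 and 2.92, Id2 was 1.93 and 2.84, Id4 was -1.62 and -1.72, and Smad6 was -1.62 and -1.22. Leaving out single arrays, Id1 ranged from 2.47 to 3.24, Id2 from 2.14 to 2.48, Id4 from -1.71 to -1.48 and Smad6 from -1.49 to -1.29. For any 1 probe, 3 arrays against 3 allow no two-sided exact permutation p under 0.10, and the p-values above rest on the spread that limma shares across probes.

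**Figure D3:**
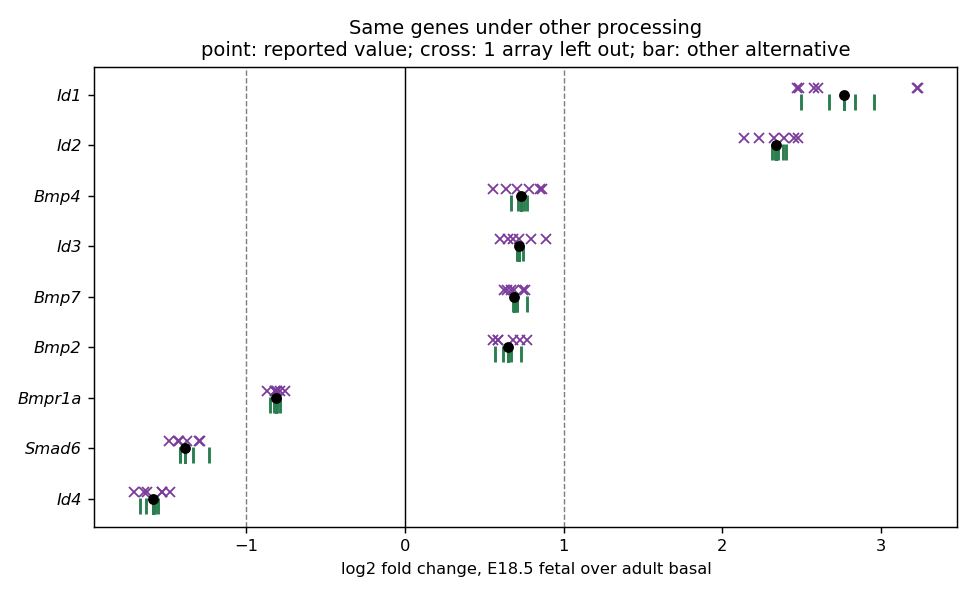
Log2 difference, fetal minus adult basal (x axis), of each tested member probe as reported (points), with 1 array left out (crosses) and under other ways of processing the data (bars). No value crosses 0, and the values of Id1 spread most widely.

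The rest of the pathway was followed with a list of 50 other genes, of which 42 were tested, each by its brightest tested probe. Holm adjustment with the 2-fold limit called 2 of the 42 genes, 1 in each direction, beside 11.2% of all genes counted by 1 probe each (6.03% higher in fetal and 5.21% in adult basal cells). With Benjamini-Hochberg adjustment and 2-fold, 7 passed, 4 higher in fetal and 3 in adult basal cells, beside 29.7% of all genes (15.8% and 13.9%). At any size 18 passed, 7 higher in fetal and 11 in adult basal cells, beside 60.3% of all genes (30.2% and 30.0%). The median difference of the 42 was -0.12, and the median absolute difference was 0.40 beside 0.53 over all genes. By role, 4 of the 8 tested secreted antagonists and modulators passed at 2-fold with Benjamini-Hochberg adjustment, and 0 of 7 other ligands and 0 of 8 receptors and co-receptors did. These counts hold 3 genes that were above the filter only in the population where they were higher and that had to differ to be tested, Chrdl2 and Atoh8 in adult basal and Bmp3 in fetal cells. Without Chrdl2 the Holm rule called only Sostdc1 among the pathway genes.

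Sostdc1, a secreted antagonist of BMP and Wnt ligands known from the developing mammary bud, rose in fetal cells, with 12.76, 12.58 and 12.94 against 7.91, 7.82 and 7.80. The arrays of each population lay close together, and the signal was 30.2-fold higher in fetal cells (log2 difference 4.92, SE 0.12, limma Holm p 2.0e-05), with 4.33 (SE 0.12) on its second probe. Chrdl2, a chordin-like antagonist, ran the other way, with 9.67, 10.60 and 10.47 on the adult basal arrays, while no fetal array showed it well above background. It was at least 88.0-fold higher in adult basal cells, a bound from the mean of the adult basal arrays over, on each fetal array, the higher of the lowest signal well above background and the probe's own (limma Holm p 0.0053). Its fetal mean was 3.30. The fitted log2 difference was -6.95, but -4.01 with normexp and -5.54 with an offset of 16, both smaller than the bound. The Holm p was 0.0617 without the low-signal filter, 0.0572 when adult basal replicate 3 was left out and 0.0768 when fetal replicate 3 was left out. Of the other antagonists, Nbl1 was higher in adult basal cells (-1.25, SE 0.10, Benjamini-Hochberg p 3.2e-05 in limma), with 13.29, 13.15 and 13.21 in fetal and 14.38, 14.50 and 14.54 in adult basal cells. Bmper, a modulator that binds BMPs outside the cell, was higher in fetal cells (7.48, 7.62 and 7.31 against 6.25, 5.76 and 5.87, difference 1.51, SE 0.16, limma Benjamini-Hochberg p 1.3e-04). Of the antagonists that passed, Sostdc1 and Bmper were thus higher in fetal cells and Nbl1 in adult basal cells, beside Chrdl2, which had to be higher there to be tested.

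Inside the cell, Smad1, a receptor SMAD, gave 9.83, 9.77 and 9.59 in fetal and 10.72, 10.91 and 10.84 in adult basal cells (difference -1.10, SE 0.11, limma Benjamini-Hochberg p 1.1e-04, Holm p 0.32). Its other probe gave -1.60 (SE 0.11) with a Holm p of 0.031, so that the call of Smad1 by the rule of the study depended on the probe. Smad7, the other inhibitory SMAD, ran in the direction of Smad6 (-0.79, limma Benjamini-Hochberg p 0.0091), as did Smurf2, a ubiquitin ligase that acts with it (-0.85, p 5.0e-04 by the same adjustment, with -0.72 and -0.38 on its other probes, the last of which did not pass). The brighter probes of Smad4 (-0.17) and Smad5 (0.03) did not pass, and their other probes gave -0.40 and 0.43 (limma Benjamini-Hochberg p 0.013 and 0.017). Of the receptors, Acvr2a was higher in adult basal cells (-0.86, limma Benjamini-Hochberg p 3.6e-04) and Acvr2b, its close relative, in fetal cells (0.69, limma Benjamini-Hochberg p 0.0014). The co-receptor Rgmb was higher in adult basal cells (-0.56, limma Benjamini-Hochberg p 0.0084). Bmpr2, the main type II receptor for BMPs, differed by -0.47 and did not pass (limma Benjamini-Hochberg p 0.063).

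Among 7 other transcription targets 1 passed at 2-fold (beside 29.7% of all genes), Hey1, a Notch and BMP target, with 13.62, 13.68 and 13.98 in fetal and 11.48, 12.76 and 12.31 in adult basal cells (difference 1.57, SE 0.31, limma Benjamini-Hochberg p 0.0030). At any size (60.3% of all genes) 2 further targets passed, both higher in adult basal cells: Atoh8 (-0.66, limma Benjamini-Hochberg p 4.8e-04) and the homeobox gene Msx1 (-0.37, limma Benjamini-Hochberg p 0.022). Msx2 differed by -0.06 and did not pass. The E proteins, the partners that Id proteins bind, were followed as 3 genes. Tcf3 gave 11.88, 11.73 and 12.02 in fetal and 10.64, 10.17 and 10.40 in adult basal cells (difference 1.48, SE 0.15, limma Benjamini-Hochberg p 1.0e-04), and its second probe gave 1.45. Tcf12 differed by 0.68 in the same direction (limma Benjamini-Hochberg p 0.0069), and Tcf4 by 0.08, which did not pass. The genes higher in fetal cells thus included Id1, Id2 and Id3 and the E proteins Tcf3 and Tcf12, and those higher in adult basal cells Id4.

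**Figure D4:**
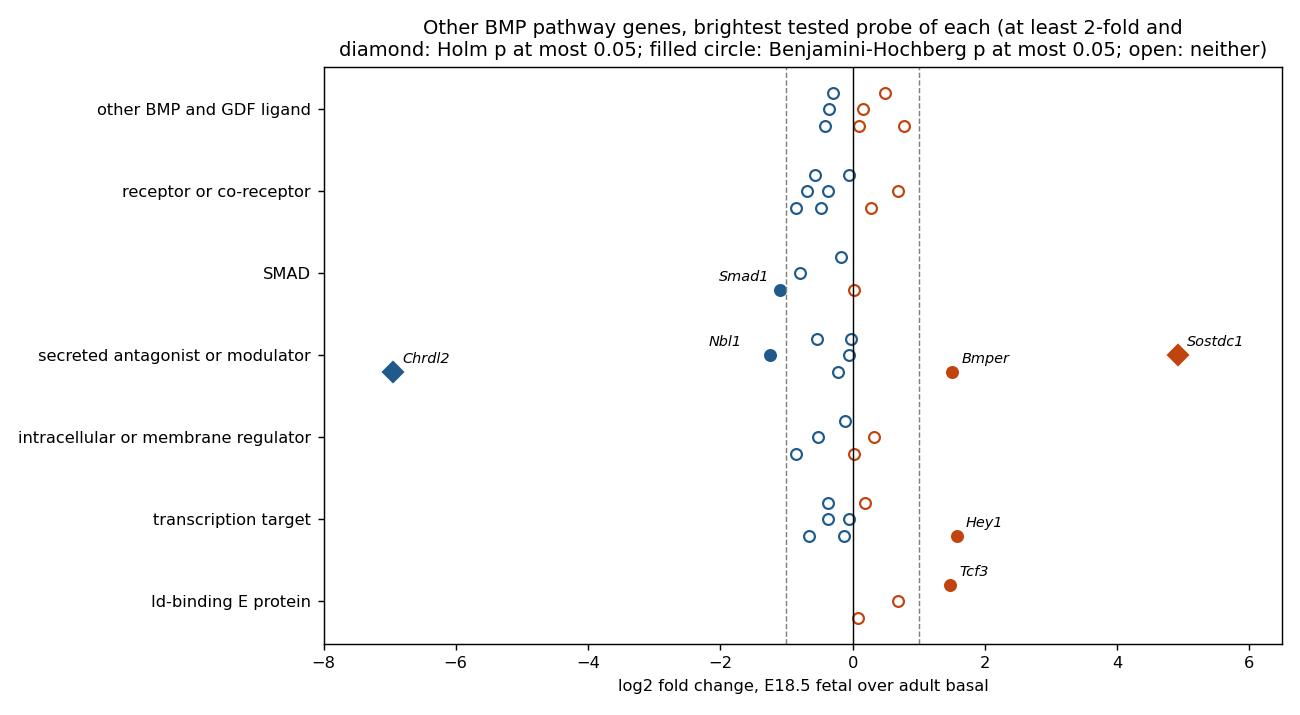
Log2 difference, fetal minus adult basal (x axis), of the brightest tested probe of the 42 tested pathway genes, with the role of each gene in a row of its own. Diamonds passed Holm at 2-fold, filled circles passed Benjamini-Hochberg at 2-fold, and open circles passed neither. The diamond of Chrdl2 is a fitted value, as its fetal arrays were not well above background.

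The samples were checked against markers, since in bulk samples fewer cells of a type and less RNA per cell cannot be told apart. The counts of markers below stand beside 11.2% of all genes called by the Holm rule and 29.7% by Benjamini-Hochberg adjustment at 2-fold. Of 9 basal markers, 7 fell in fetal cells by the Holm rule, among them Myh11, which was above the filter only in adult basal cells, and 0 rose. Their summed linear signal was 83622, 75667 and 69521 on fetal arrays and 964314, 915404 and 903210 on adult basal arrays, with Acta2 (smooth muscle actin) the brightest. Krt14 (-1.20, limma Benjamini-Hochberg p 0.077) did not pass. The probes of Trp63 disagreed: its brighter probe gave -0.08 and did not pass, and its other probe gave -3.07 (SE 0.10, limma Holm p 1.9e-04). Of 8 luminal markers, Cd24a, Elf5, Kit and Cldn3 rose in fetal cells by the Holm rule and 0 fell. With Benjamini-Hochberg adjustment at any size, 6 were higher in fetal and 2 in adult basal cells, the latter being Krt19 (-1.22, limma Benjamini-Hochberg p 4.1e-04) and the brighter probe of Prlr (-0.35, p 0.023 by the same adjustment). The other Prlr probe ran the opposite way (1.85, limma Holm p 0.026). Their sum was 236127, 241185 and 194124 against 127329, 116978 and 120217, with Krt18 the brightest. The summed signal of fetal samples was thus lower for the basal and higher for the luminal list, with Krt19 and a probe of Prlr against that direction. All 6 proliferation markers rose in fetal cells, with sums of 76627, 80569 and 78246 against 768, 1837 and 1310 and Mki67 the brightest. Sums and the brightest gene depend on how strongly each probe responds and are not levels per transcript.

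Of the cells the sorts were to remove, fibroblast markers summed to 5460, 5740 and 7056 on fetal and 16064, 18540 and 26641 on adult basal arrays, with Col1a2 the brightest. Of the 7 tested fibroblast markers 2, Pdgfrb and Dcn, fell in fetal cells by the Holm rule. With Benjamini-Hochberg adjustment at 2-fold 3 passed, all higher in adult basal cells. Col1a1 (-0.01) and Pdgfra (-0.37) did not pass that adjustment at any size, and no fetal array had Twist1 well above background. Leukocyte markers summed to 392, 449 and 493 against 2061, 1520 and 4088, with Cd74 the brightest, and 0 of 6 passed the Holm rule while 4 of 6 passed Benjamini-Hochberg at 2-fold, all higher in adult basal cells. Ptprc, which encodes the CD45 of the gate, differed by -0.31. Endothelial markers summed to 12267, 10825 and 12595 against 12870, 13792 and 11251, with Kdr the brightest, and no fetal array had Tek well above background. The sum was carried by the brighter probe of Kdr (-0.04), with means of 13.45 in fetal and 13.49 in adult basal cells. Its other probe was far dimmer, with means of 6.20 and 6.87. That probe gave -0.66 and did not pass (limma Benjamini-Hochberg p 0.15), so that the endothelial sum rests on 1 Kdr probe. Of the 5 tested endothelial markers 0 passed the Holm rule. Cdh5 (-2.70), Emcn (-1.79) and Cldn5 (-1.40) passed Benjamini-Hochberg at 2-fold, all higher in adult basal cells. Several markers named or counted here were above the filter only in the population where they were higher, so that they had to differ to be tested, and their calls are no support for a difference of their list. In adult basal cells these were, beside Myh11, Pdgfrb of the fibroblast list, Cdh5 and Emcn of the endothelial list and 3 of the 4 leukocyte markers that passed (Cd52, Tyrobp and Lyz2), and in fetal cells Elf5 of the luminal list. The basal, fibroblast and leukocyte lists summed higher in adult basal cells, where Bmpr1a, Smad6, Id4, Chrdl2 and Nbl1 were also higher. The luminal and proliferation lists summed higher in fetal cells, where Id1, Id2, Id3 and the 3 ligands were also higher. The part of these lists in those differences was not tested. Of the antigens the gates used, Epcam differed by 1.88, Itga6, which encodes CD49f, by 0.01, and Pecam1, which encodes CD31, by -0.14. Enpep, which encodes BP-1, was well above background on none of the 6 arrays.

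**Figure D5:**
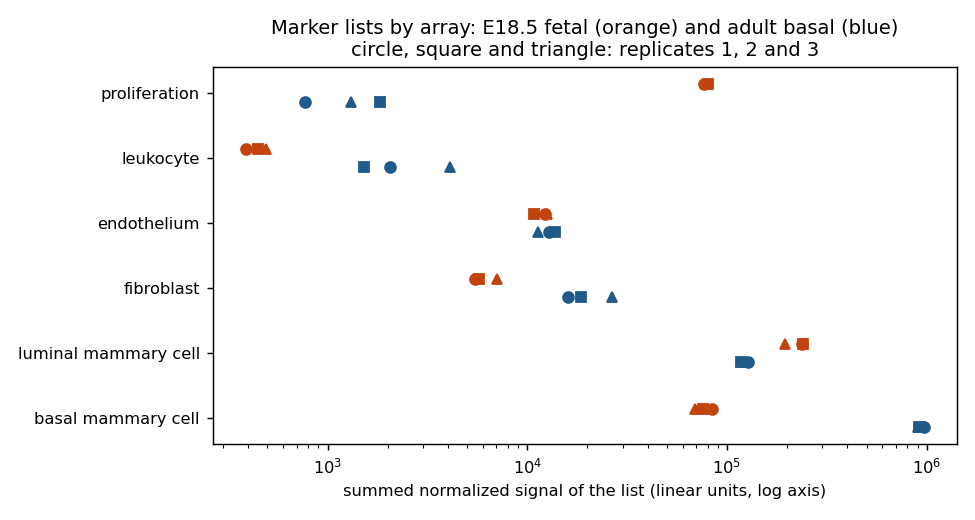
Summed linear normalized signal of each marker list (x axis, log scale) on each array, with E18.5 fetal arrays in orange, adult basal arrays in blue, and circle, square and triangle for replicates 1, 2 and 3. Basal, fibroblast and leukocyte markers sum higher on adult basal arrays, luminal and proliferation markers higher on fetal arrays, and endothelial markers overlap.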

How the data were processed

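The 6 RNA samples were each read on a one-color Agilent mouse expression array (SurePrint G3), and groups and replicate numbers were taken from the labels. The labels name a Low Input Quick Amp kit and the methods its WT version. The authors deposited spot intensity values, which Feature Extraction 11.0.1.1 had background-subtracted within each array, and a table of log2 values that the authors quantile normalized in GeneSpring. From the processed signal, control and outlier spots (104 to 326 per array) were left out, repeated spots of a probe were averaged on the log2 scale, and quantile normalization was applied over the 6 arrays. Of 55681 probes, 27235 matched a RefSeq gene by accession. Probes in the lowest of 3 k-means clusters in both populations were removed. Differences were fitted with limma 3.58.1 in R 4.3.3 and adjusted over all 20448 tested probes. The main probe of a gene was the tested probe with the highest mean.

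The members and lists were chosen with earlier results of these data known. A further gene of the pathway list is not reported here and was left out of its counts. Named genes were all members, the called pathway genes, and the brightest and the undetected marker genes. Genes named beyond these were chosen after their values were seen. Genes most like a member were to be named only for called members, and there were none. Alternatives were 75th percentile normalization, the deposited log2 table, normexp (offset 50, on the median spot intensity), no filter, a filter requiring signal well above background, the use of every probe, Benjamini-Hochberg adjustment, eBayes with trend and robust estimation, an offset of 16, the mean of a gene's probes, replicate or slide as a block, and each array left out. The fit was tested on simulated data. The number of arrays limits the precision.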

Additional observations from a re-analysis of the deposited data

How the results depend on the processing

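No alternative reversed the direction of any tested member. With an array left out this was all but fixed in advance, since the populations did not overlap for any of the 9. Id1, Id2, Id4 and Smad6 passed Benjamini-Hochberg adjustment at 2-fold in all 18 alternatives. The alternative that changed only the adjustment to Benjamini-Hochberg has the reported fit and repeats it here. Normexp tested 7 of the 9 member probes, since Bmp2 and Bmp4 fell below its filter. The number of member probes called was 0 by the rule of the study, 1 with normexp (Id4), 4 with Benjamini-Hochberg adjustment, 2 with eBayes trend and robust estimation (Id2 and Id4) and 1 with an offset of 16 (Id2), and stayed between 0 and 0 with an array left out. The number of pathway genes called was 2, and was 1 without the filter, 7 with Benjamini-Hochberg adjustment and 4 with eBayes trend and robust estimation. The number was 3 with normexp, 3 with an offset of 16 and 3 with the mean of a gene's probes. With an array left out it ranged from 1 to 2, and was 1 without fetal replicate 3 or adult basal replicate 3. Of all tested probes 2270 were called, 1182 without the filter, 6133 with Benjamini-Hochberg adjustment, and between 948 (without fetal replicate 1) and 1949 with an array left out. It was 974 without fetal replicate 2, 1055 without fetal replicate 3, 1469 without adult basal replicate 1 and 1327 without adult basal replicate 3. Apart from the replicate block, the other alternatives gave between 1541 (slide block) and 3356 (eBayes trend and robust estimation). Over all tested probes, the deviations of samples of the same replicate number had correlations of -0.032, 0.0933 and 0.0488. Those of samples with different numbers ran from -0.1296 to 0.1203. The fetal and adult basal samples numbered 1 shared a slide, as did those numbered 2. These correlations cannot settle whether same-numbered samples were paired, since they average over all probes. With the replicate block 1302 probes were called and no member call changed. The SE of Id1 fell from 0.51 to 0.31 with that block, and the SE of Id4 rose from 0.15 to 0.16. Each fit that leaves an array out also has fewer arrays, and the cause of these changes was not tested. Dim probes such as Grem1 and the second Bmp4 probe limit what these arrays can show.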

Other observations

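Bmp6, a ligand chosen for mention after its values were seen, gave 9.25 on fetal array 1 and 5.38 and 5.40 on fetal arrays 2 and 3, beside 6.11, 6.41 and 6.02 on the adult basal arrays. Its fetal SD of 2.23 rests on that array, and the difference did not pass (limma Benjamini-Hochberg p 0.68). A probe of Bmpr1b, a type I receptor, gave 4.61, 4.51 and 5.36 in fetal cells. No adult basal array showed it well above background, which puts it at least 1.92-fold higher in fetal cells. The other Bmpr1b probe was well above background on none of the 6 arrays, with overlapping populations. Both were below the filter and were not tested.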
